A study of Mus musculus with 24 samples.

Results

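Wnt ligands, their receptors and their antagonists were followed in mouse forelimb buds grown in culture with the flame retardant BPDP (tert-butylphenyl diphenyl phosphate, an organophosphate ester). The genes were taken by symbol: Wnt, Fzd, Sfrp, Dkk or Rspo followed by a number, plus Lrp5, Lrp6, Frzb, Wif1, Axin2, Lef1 and Tcf7. Of 48 such symbols, 45 reached a mean of at least 1 CPM (counts scaled to the library size) in at least 1 group and were kept, out of 25844 genes in all, of which 15263 reached that level. They were 16 ligands, 12 receptors, 10 antagonists, 4 R-spondins and 3 nuclear or feedback genes. Wnt1, Wnt8a and Wnt8b stayed below it. All 45 also passed the low-count filter of every comparison.

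The limb buds came from CD1 mouse embryos at gestation day 13. They were cultured for 3 or 24 h in 1 of 3 media: the solvent DMSO as control, 1 µM BPDP or 10 µM BPDP. Each of the 6 groups had 4 libraries of poly-A RNA, with 14165947 to 20823058 counts each. The series title asks about hedgehog signalling. Whether the replicates of a group are different litters, embryos or cultures is not in the labels, nor how many embryos went into a library, and p-values then cover only the spread among these libraries, which may be technical. Whole limb buds mix several cell types, so fewer cells of a type and less RNA per cell cannot be told apart. Limb mesenchyme markers matched the labelled tissue: the mean of Tbx5, a forelimb transcription factor, lay between 239 and 287 CPM in the 6 groups. Tbx4 and Pitx1, 2 hindlimb genes, had group means of 17.6 to 21.3 and 4.24 to 8.81 CPM. Libraries with the same replicate number deviated together in each comparison of BPDP with control (correlations of 0.11 to 0.36 over all pairs). With 10 µM, the control of the same number was the closest for 3 of 4 treated libraries at 24 h and 2 of 4 at 3 h. With 1 µM these counts were 4 and 3 of 4. A fit with the replicate number as a block is therefore given where it changes how many of the Wnt pathway genes were called.

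Wnt proteins are secreted lipid-modified ligands. They bind Frizzled receptors (Fzd genes) together with the co-receptors Lrp5 and Lrp6, which stabilises beta-catenin so that it can join the DNA-binding proteins Lef1 and Tcf7 and switch on targets such as Axin2, while other Wnts, Wnt5a among them, act mainly without beta-catenin. Secreted Frizzled-related proteins (Sfrp genes and Frzb) and Wif1 bind Wnts outside the cell, Dickkopf proteins (Dkk genes) mostly block Lrp5 and Lrp6, and R-spondins protect the receptors from removal. In limb buds, Wnts of the ectoderm act on outgrowth and on the dorsal side, Wnt5a on elongation, and Wnt4, Wnt9a and Wnt16 on forming joints.

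Promoter sequence is shown for 3 of the genes with the largest changes at 24 h with 10 µM, as context for their values. Each line gives the 250 bases upstream of the gene's start, 5′ to 3′ on the gene's own strand, from RefSeq on mm10 (GRCm38.p6), with CpG dinucleotides in capitals.
Wnt16: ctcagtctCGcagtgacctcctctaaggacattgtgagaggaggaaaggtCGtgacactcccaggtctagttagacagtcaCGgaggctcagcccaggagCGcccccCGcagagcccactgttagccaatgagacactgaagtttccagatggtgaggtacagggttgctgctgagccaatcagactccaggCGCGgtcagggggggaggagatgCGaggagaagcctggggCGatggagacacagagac
Sfrp2: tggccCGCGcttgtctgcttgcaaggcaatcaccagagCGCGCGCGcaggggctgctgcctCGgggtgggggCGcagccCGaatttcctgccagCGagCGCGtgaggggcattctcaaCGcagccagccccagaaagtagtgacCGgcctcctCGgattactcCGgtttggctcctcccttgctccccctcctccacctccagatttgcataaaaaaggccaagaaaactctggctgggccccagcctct
Sfrp5: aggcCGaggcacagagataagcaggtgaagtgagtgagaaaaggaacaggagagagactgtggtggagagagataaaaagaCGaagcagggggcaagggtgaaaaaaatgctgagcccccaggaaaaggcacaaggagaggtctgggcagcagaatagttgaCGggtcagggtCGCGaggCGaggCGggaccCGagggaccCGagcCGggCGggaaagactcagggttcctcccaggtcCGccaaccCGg
The windows were chr6:22287977-22288226 on the plus strand for Wnt16, chr3:83766071-83766320 on the plus strand for Sfrp2 and chr19:42202253-42202502 on the minus strand for Sfrp5. They held 9, 16 and 13 CpG, and the median over 32851 promoters was 6. Tcf7 has 2 listed start sites and is not printed. The promoter table had entries for 30 of the 45 genes, and for 9 of the 11 that were called with 10 µM at 24 h (Fzd6 and Fzd8 had none). The TCF/LEF motif CTTTGAT, on either strand of the 300 bases from 250 before to 50 after the start, was in 3.73% of all promoters and in those of Wnt11 and Wnt5b among the 30. The GLI motif GACCACCCA, the sequence bound by the transcription factors of the hedgehog pathway, was in 0.253% of all promoters and in none of the 30. Neither motif was found in the 9, which says only that these letters are not in these windows.

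In control cultures the receptors and antagonists included the most abundant members, and most ligands were scarce. Per kilobase of transcript, Fzd2 stood first at 24 h with 95.8 ± 11.6 CPM per kilobase (SD, n = 4), followed by Sfrp2 with 66.6 ± 12.0, Dkk2 with 43.0 ± 5.68 and Wnt5a with 40.4 ± 4.14 CPM per kilobase. The levels of Dkk2 and Wnt5a did not differ beyond their spread. Wnt5a was the most abundant ligand, ahead of Wnt6, an ectodermal Wnt, at 24.97 ± 11.8 and Wnt4 at 22.0 ± 6.37 CPM per kilobase, whose spreads overlapped. The nuclear and feedback genes lay in the middle of the range, with Axin2 at 21.8 ± 3.87, Lef1 at 14.1 ± 2.68 and Tcf7 at 6.76 ± 1.12 CPM per kilobase. The co-receptors Lrp6 and Lrp5 stood at 19.9 ± 2.22 and 18.2 ± 3.99 CPM per kilobase and could not be ordered. At the low end, Wnt16 had 0.912 ± 0.232 and Wnt2 had 0.322 ± 0.114 CPM per kilobase.

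**Figure D1:**
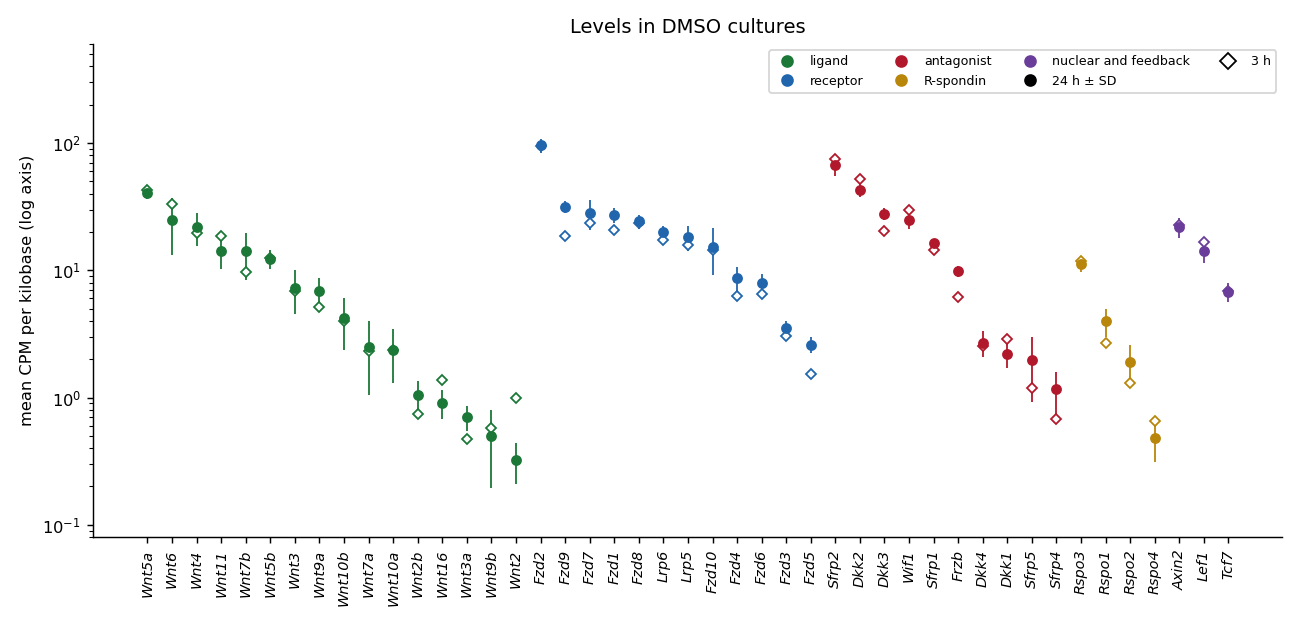
Mean level of the 45 genes in DMSO cultures, in CPM per kilobase of transcript on a log axis, by role and in order of the 24 h level. Filled points with bars are the mean ± SD of 4 libraries at 24 h, and open diamonds the mean at 3 h. Fzd2 and Sfrp2 lie at the top and Wnt2 at the bottom.

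With 10 µM BPDP for 24 h, 11 of the 45 genes changed: 7 rose (Wnt16, Sfrp2, Fzd9, Frzb, Wif1, Fzd5 and Fzd8) and 4 fell (Sfrp5, Tcf7, Wnt9a and Fzd6). Over all 15508 genes tested, 2.77% were called higher and 3.44% lower, by edgeR's quasi-likelihood test at a Benjamini-Hochberg adjusted p under 0.05, which is what "called" means throughout. The median log2 fold change of the 45 was -0.01, beside -0.02 over all genes, so the set as a whole had no common direction. By role, the medians were -0.28 for ligands (2 of 16 called), 0.17 for receptors (4 of 12) and 0.20 for antagonists (4 of 10). With the replicate number as a block 18 were called, against 10.6% of all genes in either direction, and the 7 added were Dkk2 and Lrp6, higher, and Dkk4, Fzd10, Lef1, Sfrp4 and Wnt4, lower. Leaving out 1 library at a time gave 5 to 12 calls, the lowest without 10 µM replicate 4. The counts were 6, 7 and 6 without replicates 1, 2 and 3 of that group and 7 without control replicate 4. Over all genes, 430 were called higher and 533 lower with every library. These numbers were 186 and 305 without 10 µM replicate 4, and 598 and 644 without control replicate 2, which gave the 12. Frzb, Fzd9, Sfrp2, Tcf7 and Wnt16 were called in each of the 8 fits without 1 library. Within replicates 1 and 2 alone, with 2 libraries per group, edgeR called 0 of the 45 (14 at an unadjusted p under 0.05). Few genes of any kind were called there, 2 higher and 4 lower of 15829, with 1644 at an unadjusted p under 0.05. Within replicates 3 and 4 alone it called 6 of the 45, beside 463 higher and 490 lower of 15543 genes.

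**Figure D2:**
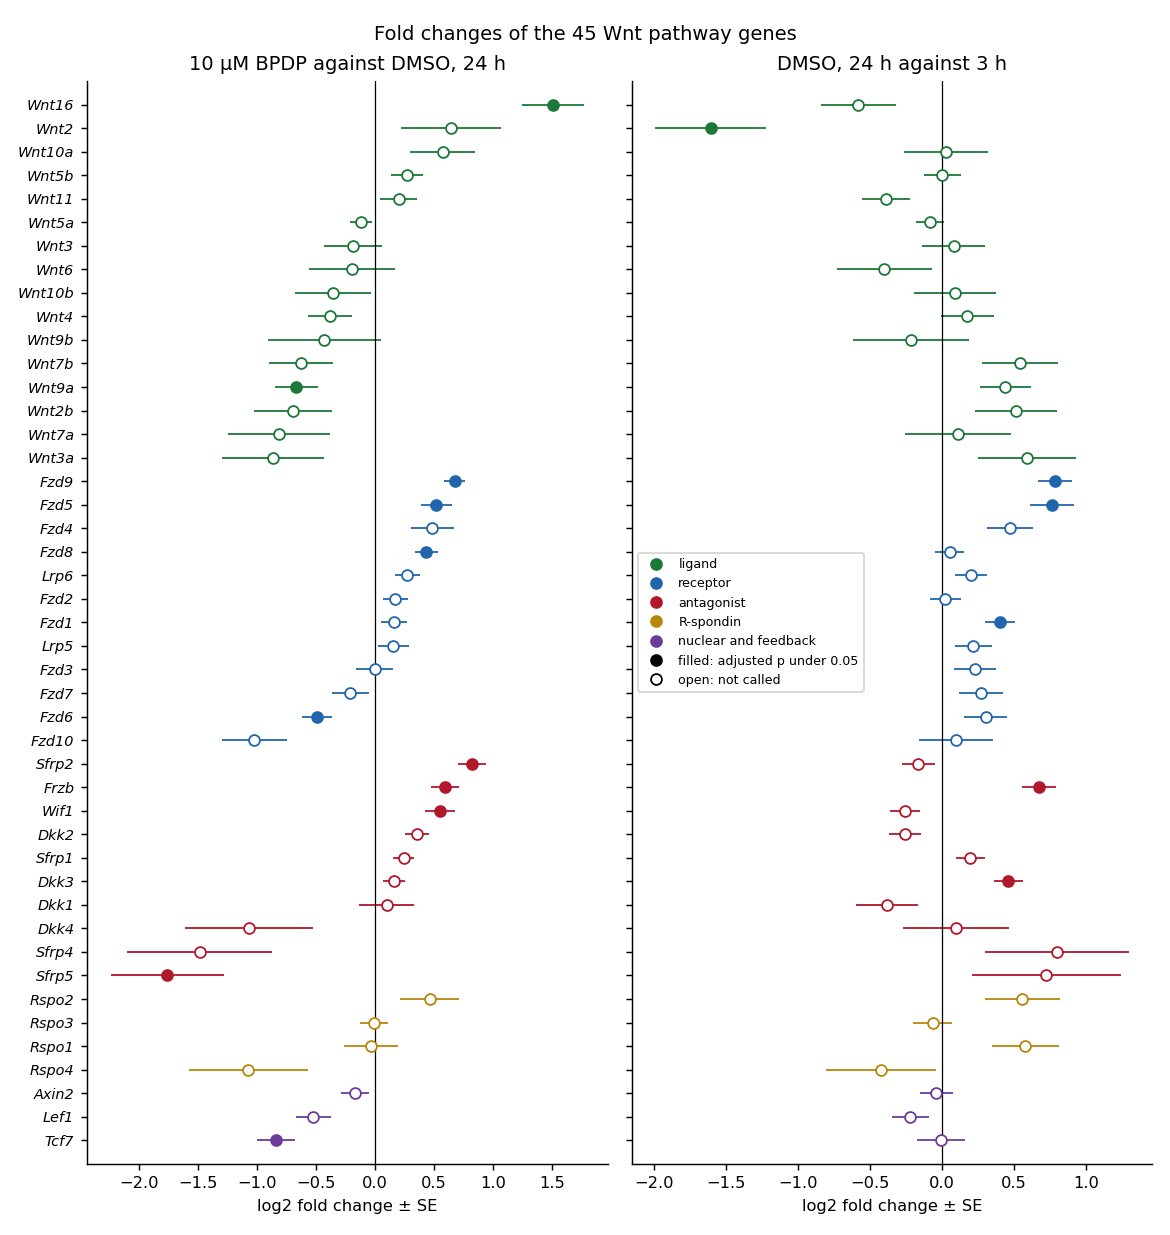
Log2 fold change ± SE of the 45 genes, grouped by role and in order of the change with 10 µM BPDP at 24 h (left), and the change of the same genes between 3 and 24 h in DMSO (right), each from 8 libraries. Filled points have an adjusted p under 0.05, 11 on the left and 6 on the right. Wnt16 is farthest to the right and Sfrp5 farthest to the left in the BPDP panel.

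Among the ligands, Wnt16, a Wnt of joints and of bone, was the only one that rose. Its 4 controls at 24 h had 2.80, 3.17, 2.09 and 3.93 CPM, 1 µM cultures 6.99, 5.04, 4.61 and 5.54 CPM, and 10 µM cultures 6.78, 12.1, 7.65 and 7.56 CPM. Every treated library lay above every control, with replicate 2 of 10 µM far above the others of its group. The log2 fold change at 10 µM was 1.51 (SE 0.26, adjusted p = 0.0046, edgeR). At 3 h the group means of Wnt16 were 4.52, 5.05 and 4.37 CPM with 0, 1 and 10 µM, so the 24 h controls were the lowest of the 6 groups. Wnt9a, which takes part in joint formation, was the only ligand that fell. It had 30.7, 20.1, 16.7 and 23.8 CPM in controls and 13.7, 17.1, 12.2 and 14.01 CPM with 10 µM. The groups overlapped in 1 control library, and the call (log2 fold change -0.67, SE 0.18, adjusted p = 0.0483, edgeR) was lost in 6 of the 8 fits that left out a library.

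The remaining 14 ligands were not called. Wnt5a, the most abundant, had 308, 249.8, 267 and 307 CPM in controls and 242, 265, 259 and 273 CPM with 10 µM (log2 fold change -0.12, 95% interval -0.30 to 0.07, adjusted p = 0.53, edgeR). Wnt4, another Wnt of the joint, was at 92.1 ± 26.7 CPM in controls and 70.6 ± 10.5 CPM with 10 µM, where the log2 fold change of -0.38 had an adjusted p of 0.289 in edgeR and 0.0296 with the replicate block. Among all 16 ligands, Wnt16 and Wnt9a included, negative values outnumbered positive ones, 11 to 5, where 47.4% of all genes were positive. Wnt7a, the dorsal ectodermal Wnt, was at 7.95 ± 4.63 CPM in controls and 4.51 ± 1.95 CPM with 10 µM, and Wnt7b at 49.1 ± 19.8 and 31.7 ± 5.43 CPM (adjusted p of 0.319 and 0.234, edgeR). The controls of both spread widely, from 3.12 to 14.3 CPM for Wnt7a and from 28.9 to 75.5 CPM for Wnt7b, and Wnt6 controls did so as well, from 26.8 to 82.7 CPM.

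**Figure D3:**
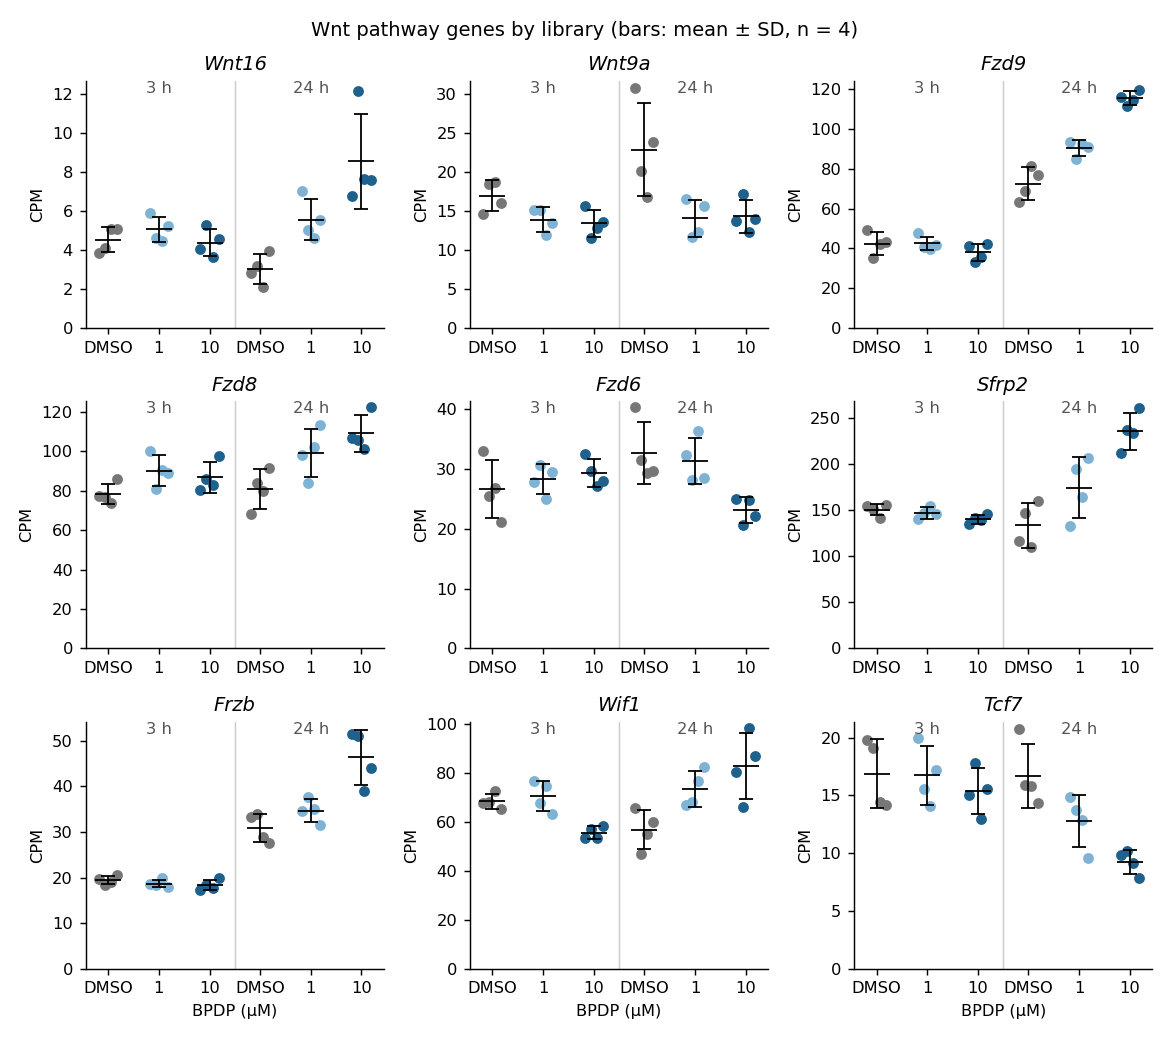
CPM of 9 genes called with 10 µM BPDP at 24 h, 1 point per library, with mean ± SD bars (n = 4) and an axis from 0; DMSO, 1 and 10 µM are grouped at 3 h (left of the grey line) and 24 h (right). The groups of DMSO and 10 µM at 24 h are separate in 8 of the panels and overlap for Wnt9a. The genes were picked because they were called, which favours separate groups, and the share of separate groups over all genes was not counted. Of the called genes not shown, Fzd5 was separate and Sfrp5 overlapped.

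Of the receptors, 3 Frizzled genes rose and 1 fell. Fzd9 (chr5:135248938-135251230) had 63.1, 69.0, 81.4 and 77.0 CPM in controls, 93.6, 84.8, 92.4 and 91.0 CPM with 1 µM and 116, 111, 115 and 119.8 CPM with 10 µM. The 3 groups did not overlap, and the log2 fold change at 10 µM was 0.68 (SE 0.09, adjusted p = 0.000763, edgeR). Fzd8 went from 68.0, 84.0, 79.9 and 91.8 to 107, 106, 101 and 123 CPM (log2 fold change 0.44, SE 0.10, adjusted p = 0.0195, edgeR), a call lost in 2 of 8 fits without 1 library. Fzd5 went from 20.1, 19.4, 14.4 and 18.1 to 25.1, 29.2, 23.5 and 25.2 CPM. All 4 treated libraries of each were above all controls. The rise of Fzd5 (log2 fold change 0.52, SE 0.13, adjusted p = 0.0371, edgeR) was lost in 6 of 8 such fits. Of the annotated exon bases of Fzd5, 17.8% lie under a gene on the opposite strand, whose reads cannot be told apart here since the strand of the libraries is not stated.

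Fzd6, a receptor known for planar polarity and hair follicle orientation, was the receptor that fell. Its controls had 40.4, 31.5, 29.3 and 29.6 CPM and the 10 µM cultures 25.04, 20.6, 24.8 and 22.2 CPM, with no overlap. The log2 fold change was -0.49 (SE 0.13, adjusted p = 0.0421, edgeR), and the call was lost in 7 of the 8 fits without 1 library. Fzd10 was 49.6 ± 19.9 CPM in controls and 24.3 ± 4.35 CPM with 10 µM. Its control libraries ran from 30.1 to 74.3 CPM, and the log2 fold change of -1.03 had an adjusted p of 0.0662 in edgeR and 0.00261 with the replicate block. The co-receptors were not called: Lrp5 had a log2 fold change of 0.15 (95% interval -0.10 to 0.41, adjusted p = 0.565, edgeR) and Lrp6 one of 0.28 (0.08 to 0.48), with an adjusted p of 0.142 in edgeR and 0.0284 with the block. Fzd2, the most abundant receptor, had a log2 fold change of 0.17 (95% interval -0.03 to 0.38). Fzd4, known for its part in blood vessel growth, was at 32.2 ± 7.25 CPM in controls and 44.9 ± 9.13 CPM with 10 µM, and Fzd7 at 127 ± 33.9 and 109.9 ± 6.50 CPM; neither was called (adjusted p of 0.149 and 0.49, edgeR).

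Of the antagonists, 3 secreted Wnt-binding proteins rose. Sfrp2 had 117, 147, 109.9 and 160.2 CPM in controls, 133, 195, 164 and 206 CPM with 1 µM and 212, 237, 233 and 260.1 CPM with 10 µM. Each 10 µM library was above each of the 8 others at 24 h, and the log2 fold change from control was 0.83 (SE 0.12, adjusted p = 0.00153, edgeR). An opposite-strand gene covers 16.1% of the exon bases of Sfrp2. Frzb (chr2:80411970-80447625), an antagonist made by forming cartilage, went from 33.2, 33.9, 28.9 and 27.6 to 51.5, 51.0, 38.9 and 44.0 CPM (log2 fold change 0.59, SE 0.12, adjusted p = 0.0113, edgeR). Wif1 went from 65.4, 46.7, 55.1 and 59.9 to 80.3, 66.1, 98.1 and 86.7 CPM. The 2 groups of Wif1 were apart by less than 1 CPM, and its call (log2 fold change 0.55, SE 0.13, adjusted p = 0.0247, edgeR) was lost in 5 of 8 fits without 1 library.

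Sfrp5 was the antagonist that fell, and it was scarce. Its controls had 3.90, 6.39, 2.74 and 1.84 CPM and the 10 µM cultures 1.97, 0.899, 0.446 and 0.969 CPM, which is 36 to 125 reads against 7 to 39. Replicate 1 of 10 µM overlapped the controls, and the call (log2 fold change -1.76, SE 0.48, adjusted p = 0.048, edgeR) was lost in 6 of 8 fits without 1 library. Within each group at 24 h, replicates 1 and 2 had more Sfrp5 than replicate 3. Dkk2, an abundant antagonist of Lrp5 and Lrp6, was 159 ± 21.0 CPM in controls and 203 ± 10.0 CPM with 10 µM. Its groups did not overlap, and its log2 fold change of 0.36 had an adjusted p of 0.0524 in edgeR and 0.0228 with the replicate block. Sfrp1, the next most abundant Sfrp gene, was at 71.4 ± 6.12 CPM in controls and 84.1 ± 5.87 CPM with 10 µM (log2 fold change 0.24, adjusted p = 0.137, edgeR). Sfrp4 and Dkk4 were scarce, at 2.04 ± 0.761 and 3.53 ± 0.800 CPM in controls, with 2 to 29 and 4 to 54 reads a library with 10 µM. They had log2 fold changes of -1.49 and -1.07, with adjusted p of 0.184 and 0.289 in edgeR and 0.0382 and 0.0484 with the block.

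The 3 nuclear and feedback genes all had negative values, and 1 was called. Tcf7 (chr11:52252371-52283014), a DNA-binding partner of beta-catenin, had 20.7, 15.9, 15.8 and 14.3 CPM in controls, 14.9, 13.7, 12.9 and 9.59 CPM with 1 µM and 9.87, 10.2, 9.11 and 7.81 CPM with 10 µM. Its controls and 10 µM libraries were separate, and it fell by 0.84 on the log2 scale (SE 0.16, adjusted p = 0.00803, edgeR). Lef1, a related factor, had 56.9, 39.0, 61.4 and 49.3 CPM in controls and 30.3, 31.9, 43.2 and 38.2 CPM with 10 µM. One treated library lay above the lowest control, and the log2 fold change of -0.52 (SE 0.15) had an adjusted p of 0.06 in edgeR and 0.00874 with the replicate block. An opposite-strand gene covers 13.7% of the exon bases of Lef1. Axin2, the usual feedback readout of beta-catenin signalling, had 117, 82.8, 87.7 and 83.0 CPM in controls and 86.6, 85.9, 83.4 and 71.4 CPM with 10 µM. Its groups overlapped, and its log2 fold change was -0.17 (95% interval -0.41 to 0.06, adjusted p = 0.448, edgeR). None of the 4 R-spondins was called by edgeR or DESeq2, and 0 had an unadjusted p under 0.05, with a median log2 fold change of -0.02. Rspo3, the most abundant of them, was at 26.8 ± 3.59 CPM in controls and 26.6 ± 1.52 CPM with 10 µM. Rspo2, which limb outgrowth depends on, was at 6.32 ± 2.21 and 8.67 ± 1.70 CPM (adjusted p = 0.322, edgeR).

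The authors' deposited table for this comparison called 8 of the 45 higher and 6 lower, and 680 and 780 of all genes. It held the 11 genes above and added Dkk2 (log2 fold change 0.34), Fzd10 (-0.80) and Lef1 (-0.46). For the 5 genes called in every fit without 1 library, the authors' deposited table gave log2 fold changes of 1.10 for Wnt16, 0.77 for Sfrp2, 0.65 for Fzd9, 0.55 for Frzb and -0.72 for Tcf7. Each was smaller in size than the edgeR value given above. The gap was wide for the scarce Sfrp5, where the deposited value was -0.81.

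Other genes of the pathway were taken from 7 lists, with their values given for 10 µM at 24 h. Over all 15508 genes tested there, 3225 had an unadjusted p under 0.05, and 10.6% were called with the replicate block. DESeq2 called 691 higher and 807 lower of 15953 genes. The counts of each list stand beside these. Of 12 feedback and target genes of beta-catenin, 2 fell and 0 rose by edgeR. Values were negative for 10 of the 12, with a median log2 fold change of -0.26, and 7 had an unadjusted p under 0.05. DESeq2 called 4 of them and the replicate block 6. The 2 called by edgeR were Notum, an enzyme that strips the lipid from Wnts, with a log2 fold change of -1.35 (5.98 ± 1.12 against 2.32 ± 0.744 CPM, adjusted p = 0.0121, edgeR), and Ccnd1, the G1 cyclin, with -1.41 (190.2 ± 32.3 against 71.3 ± 6.13 CPM, adjusted p = 6.2e-05, edgeR). Ccnd1 is also a cell cycle gene, and hedgehog and growth factor pathways act on it as well. Among 6 other antagonists tested, Notum (listed in both) fell and Shisa2, which holds Frizzled proteins inside the cell, rose (log2 fold change 0.55, SE 0.13, adjusted p = 0.0239, edgeR). DESeq2 and the replicate block each called 3 of these 6. Of 12 planar polarity genes, Daam1, a formin that links Wnt signals to actin, rose (log2 fold change 0.36), and 2 of the 12 were called with the block. None of the 21 intracellular pathway genes was called by edgeR, DESeq2 or the block, with 6 at an unadjusted p under 0.05 and a median of 0.08. edgeR called 0 of 5 R-spondin receptors and ubiquitin ligases (4 at an unadjusted p under 0.05, 2 by DESeq2), 0 of 11 other Wnt receptors (2 at an unadjusted p under 0.05, 0 by DESeq2) and 0 of 2 secretion genes (0 and 0). With the block these counts were 3 of 5 (Lgr5 higher, Rnf43 and Lgr6 lower), 2 of 11 (Reck and Gpc4, higher) and 0 of 2.

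**Figure D4:**
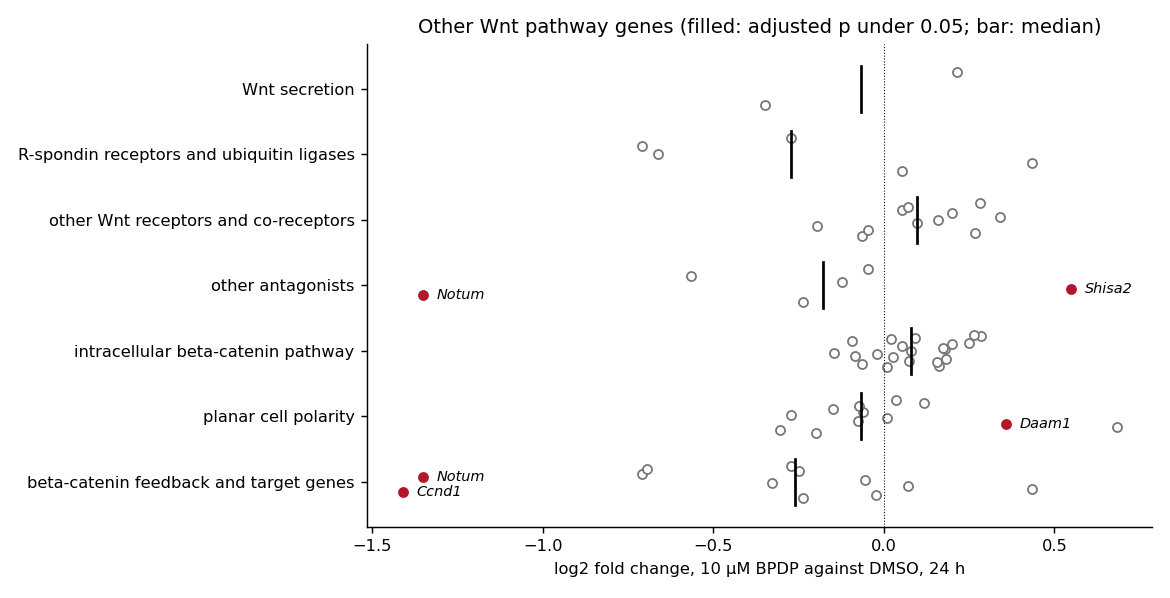
Log2 fold change with 10 µM BPDP at 24 h of the genes on 7 lists of other Wnt pathway genes, 1 point per gene, with the median of each list as a bar. Filled points have an adjusted p under 0.05: Notum, which is on 2 lists, Ccnd1, Shisa2 and Daam1.

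Markers of several cell types moved in the same cultures, and their part in the results was not tested. Epidermal markers summed to 1706 to 2965 CPM in 24 h controls and 1101 to 1667 CPM with 10 µM; all 14 had negative values, with a median log2 fold change of -0.61, and 2 (Grhl3 and Krt5) fell. Ridge markers, 4 in all, summed to 5.06 to 12.3 CPM in controls and 3.09 to 5.99 CPM with 10 µM, where Sp6 was under 0.1 CPM. Only 2 of the 4 passed the low-count filter, with negative values. Of these, edgeR and DESeq2 called 0 and the replicate block 1, with 1 at an unadjusted p under 0.05. Joint interzone markers summed to 257 to 295 and 326 to 364 CPM, and 3 of 6 (Gdf5, Gdf6 and Erg) rose. Cartilage markers summed to 8346 to 12870 and 11560 to 15520 CPM, with 0 of 11 called by edgeR and a median of 0.38. Of these 11, 10 had positive values, 6 had an unadjusted p under 0.05, DESeq2 called 2 and the replicate block 5. Limb mesenchyme markers summed to 1862 to 2071 and 1924 to 2094 CPM, and 1 of 8 fell, Msx1, from 89.9 ± 26.9 to 55.8 ± 5.93 CPM. Muscle markers summed to 1713 to 2444 and 1646 to 2141 CPM, with 7 of 9 negative and 1, Myf5, lower. None of 5 Schwann cell markers was called by edgeR or DESeq2, and 0 had an unadjusted p under 0.05. All 7 cycling markers fell, from a summed 520.2 to 574 CPM to 257 to 301 CPM, and so did 6 of 7 macrophage and 5 of 8 endothelial markers. The 24 h controls themselves varied between libraries in the epidermal sum, by more than 1.5 times.

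At 1 µM for 24 h, edgeR called none of the 45 genes, with 9 at an unadjusted p under 0.05 and 0 called by DESeq2 or with the replicate block. Only 0.077% of all genes were called by edgeR, and 917 of 15578 had an unadjusted p under 0.05. Of the 12 feedback and target genes of beta-catenin, edgeR called 1 lower at 1 µM. DESeq2 called 1 of these 12 and the replicate block 0. No gene of the other pathway lists was called by edgeR at this dose. The 1 µM and control libraries did not overlap for 5 of the 45, where they did not for 4.15% of all genes. The 5 were Wnt16 (log2 fold change 0.88, SE 0.26), Wnt9a (-0.71, SE 0.19), Fzd5 (0.48, SE 0.14), Wif1 (0.37, SE 0.12) and Fzd9 (0.31, SE 0.10). Their adjusted p in edgeR lay between 0.473 and 0.552. A fit of all 24 libraries called 1 of the 45, Wnt9a (adjusted p = 0.0396, edgeR), beside 34 higher and 61 lower of all 16691 genes. The comparisons of 1 and 10 µM share their 4 control libraries. For Fzd5 and Wnt9a the 2 doses gave nearly equal values, 25.2 ± 2.68 and 25.7 ± 2.43 CPM for Fzd5 and 14.02 ± 2.41 and 14.3 ± 2.06 CPM for Wnt9a.

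The doses were also compared directly at 24 h, where 3 genes were higher at 10 than at 1 µM and 1 was lower, against 1.22% and 2.13% of all genes. Sfrp2 (log2 difference 0.44, SE 0.11, adjusted p = 0.0218), Frzb (0.42, SE 0.10, adjusted p = 0.0122) and Fzd9 (0.36, SE 0.09, adjusted p = 0.0322) were the higher ones in edgeR. For these 3 genes no 1 µM library reached the lowest 10 µM library, and the share of all genes so separated was not counted. Lef1 was the lower one (-0.45, SE 0.13, adjusted p = 0.0484, edgeR), with 48.8, 37.7, 56.3 and 52.5 CPM at 1 µM, so its groups overlapped. The calls of Sfrp2, Frzb, Fzd9 and Lef1 were lost in 3, 2, 7 and 6 of 8 fits without 1 library. Leaving out 1 library gave 1 to 5 calls, and 1 each without 1 µM replicate 1 or 3 or 10 µM replicate 1 or 4, and 2 without 10 µM replicate 2. Over all genes, 203 were called higher and 356 lower with every library. These numbers were 108 and 167 without 1 µM replicate 1, and 148 and 334 without 1 µM replicate 2, which gave the 5. The replicate block gave 7 calls, 3 higher and 4 lower, against 4.88% of all genes. By role these were 2 receptors, 3 antagonists and 2 nuclear or feedback genes. The interval of the difference between doses ran from -0.22 to 0.30 for Fzd5 and from -0.29 to 0.35 for Wnt9a. Notum and Ccnd1 were lower at 10 than at 1 µM as well (log2 differences of -0.88 and -0.59). Of the 21 intracellular pathway genes, edgeR called 1 higher at 10 than at 1 µM, and DESeq2 and the replicate block each called 1.

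At 3 h, edgeR called none of the 45 with 10 µM, where 0.00644% of all genes were called, and none with 1 µM, where 0% were. The counts at an unadjusted p under 0.05 were 13 and 6, beside 2411 of 15520 and 801 of 15446 over all genes. DESeq2 called 6 and 0. At 10 µM it gave an adjusted p to only 33 of the 45, and called 310 higher and 137 lower of 11555 genes. At 1 µM it called 0 of all genes. With the replicate block, 5 were called at 10 µM, against 2.16% of all genes: Fzd1, Fzd3, Fzd4 and Lrp6 higher and Wnt4 lower. Fzd3, a receptor of axon guidance and planar polarity, had 13.1, 12.5, 13.8 and 11.0 CPM in controls, 17.9, 13.96, 17.1 and 18.1 CPM with 1 µM and 23.1, 21.6, 18.6 and 19.0 CPM with 10 µM. The 3 groups were in the order of the dose without overlap, and the log2 fold change at 10 µM was 0.71 (SE 0.12), with an adjusted p of 0.067 in edgeR and 0.014 with the block. Wnt4 had 93.6, 69.2, 74.9 and 90.3 CPM in controls and 45.9, 60.0, 57.8 and 51.4 CPM with 10 µM. Its groups were apart, and its log2 fold change of -0.60 (SE 0.11) had an adjusted p of 0.067 in edgeR and 0.0448 with the block. The authors' deposited table called Fzd1, Fzd3 and Fzd4 higher and Dkk2, Wif1 and Wnt4 lower with 10 µM at 3 h. It gave an adjusted p to 31 of the 45, and called 309 higher and 137 lower over all genes.

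All 10 antagonists had negative log2 fold changes with 10 µM at 3 h, with a median of -0.27, where 49.1% of all genes were positive and none of the 10 was called by edgeR (4 at an unadjusted p under 0.05, 2 by DESeq2). Dkk2 was 191 ± 16.3 CPM in controls and 156 ± 9.31 CPM with 10 µM, and Wif1 68.3 ± 3.09 and 55.5 ± 2.59 CPM, each without overlap. Receptors had a median of 0.15, with 9 of 12 positive. For ligands it was -0.17, with 3 of 16 positive. Tcf7 and Lef1 had log2 fold changes of -0.13 and 0.07 at 3 h.

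The effect of 10 µM differed between 3 and 24 h for 8 of the 45 genes, tested as a difference of differences over all 24 libraries. It was higher at 24 h for 6 (Wnt16, Sfrp2, Wif1, Fzd9, Frzb and Dkk2) and lower for 2 (Fzd3 and Fzd6), against 0.983% and 1.61% of all genes. Of these 6, 4 were antagonists, and the median over the 10 antagonists was 0.42, beside -0.03 over all genes. Sfrp2 moved from a log2 fold change of -0.09 at 3 h to 0.83 at 24 h (difference 0.92, SE 0.15, adjusted p = 0.000549, edgeR). The 2 effects had opposite signs for several of the 8 genes, and none was called by edgeR at 3 h. They were -0.29 and 0.55 for Wif1 (difference 0.84, SE 0.15, adjusted p = 0.00073, edgeR) and -0.28 and 0.36 for Dkk2 (difference 0.64, SE 0.13, adjusted p = 0.00276, edgeR). The value of Fzd3 went from 0.71 at 3 h to near 0 at 24 h (difference -0.72, SE 0.19, adjusted p = 0.0349, edgeR). The calls of Fzd3 and Fzd6 were lost in 9 and 13 of 16 fits without 1 library, and those of the other 6 in none. With the replicate block 11 genes were called, 7 higher and 4 lower, against 3.7% of all genes. By role these were 1 ligand, 3 receptors, 5 antagonists and 2 nuclear or feedback genes.

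**Figure D5:**
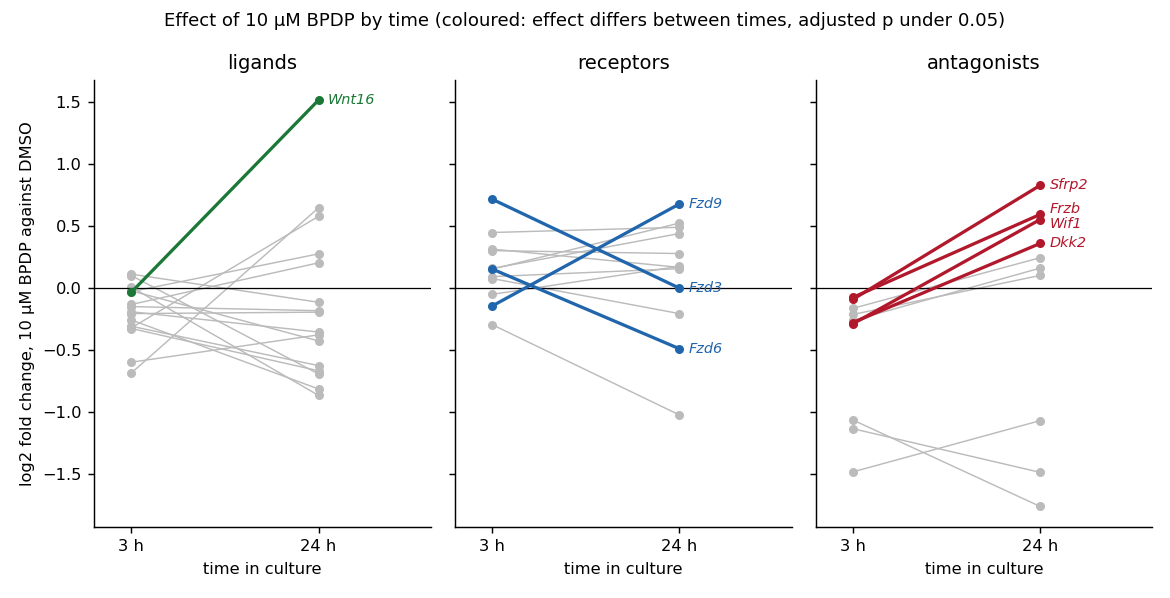
Log2 fold change of 10 µM BPDP against DMSO at 3 h and at 24 h for each ligand, receptor and antagonist, joined by a line per gene. Coloured lines are the 8 genes whose effect differed between the times (adjusted p under 0.05), and grey lines the others; the lines of Sfrp2, Frzb, Wif1 and Dkk2 run from below 0 to above 0.

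Time in culture by itself changed 6 of the 45 genes in DMSO. Fzd9, Fzd5, Frzb, Dkk3 and Fzd1 rose between 3 and 24 h and Wnt2 fell, where 5.45% of all genes rose and 4.1% fell. With the replicate block 7 were called, 6 higher and 1 lower, and the gene added was a receptor. The block called 1148 higher and 867 lower of all 15640 genes. All 12 receptors had positive log2 fold changes, with a median of 0.25, beside 0.01 and 51.1% positive over all genes. Fzd9 went from 49.3, 34.9, 42.4 and 43.0 CPM to the 24 h control values given above (log2 fold change 0.78, SE 0.12, adjusted p = 0.00119, edgeR). Frzb had 19.7, 18.4, 19.0 and 20.6 CPM at 3 h and rose by a log2 fold change of 0.68 (SE 0.12, adjusted p = 0.00334, edgeR). Fzd5 had 12.5, 10.5, 9.44 and 10.2 CPM at 3 h, and its log2 fold change was 0.77 (SE 0.15, adjusted p = 0.00722, edgeR). This comparison shares its 24 h libraries with that of 10 µM at 24 h, where the log2 fold changes of Fzd9, Frzb and Fzd5 were 0.68, 0.59 and 0.52.

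Dkk3, an atypical Dickkopf protein, had 75.8, 69.4, 64.7 and 62.6 CPM at 3 h and 88.0, 102, 81.5 and 101 CPM at 24 h (log2 fold change 0.46, SE 0.10, adjusted p = 0.0106, edgeR). Fzd1 had 88.4, 85.6, 81.3 and 88.1 CPM at 3 h and 133, 94.0, 113 and 113 CPM at 24 h (log2 fold change 0.40, SE 0.10, adjusted p = 0.025, edgeR), a call lost in 5 of 8 fits without 1 library. Wnt2, the scarcest ligand at 24 h, had 1.8, 2.65, 2.16 and 2.37 CPM at 3 h and 0.670, 1.02, 0.805 and 0.408 CPM at 24 h. The groups of all 3 were separate, and the share of all genes with separate groups was not counted here. Wnt2 rested on 8 to 20 reads a library at 24 h, and its call (log2 fold change -1.61, SE 0.39, adjusted p = 0.0182, edgeR) was lost in 4 of 8 such fits. Sfrp2, Tcf7, Lef1, Axin2, Wnt5a, Lrp5 and Lrp6 were not called over time, with log2 fold changes between -0.22 (Lef1) and 0.22 (Lrp5). Of the R-spondin receptors, Lgr6 and Lgr4 rose between 3 and 24 h (log2 fold changes of 1.03 and 0.39). Cartilage markers rose in the same comparison, 9 of 11, from a summed 4701 to 6414 CPM at 3 h. All 7 cycling markers fell from 877 to 973 CPM. Macrophage markers rose, 6 of 7, from a summed 78.1 to 99.9 CPM to 148 to 229 CPM, and so did 6 of 9 muscle markers, from 1003 to 1213 CPM to 1713 to 2444 CPM. Epidermal markers summed to 1251 to 1555 CPM at 3 h, and 3 of 14 rose. Of limb mesenchyme, Schwann cell and endothelial markers, 2 of 8, 2 of 5 and 1 of 8 fell. Joint interzone markers had 1 of 6 higher and 1 lower. The part of these changes in the results over time was not tested. The authors' deposited table called 5 of the 45 higher and 1 lower over time, the 6 named here, and 1192 and 939 of all genes.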

How the data were processed

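Poly-A RNA of 24 libraries was sequenced, 4 for each of 6 groups, which were taken from the sample labels. Per the submitters' processing notes, the tools were DESeq2 (listed as version 2), HTSeq 0.6.1, STAR 2.5 and CASAVA 1.8, and the build was mm10. The authors deposited 5 pairwise tables with raw read counts per gene and library, not normalized. The authors' log2 fold changes and their p-values and adjusted p-values were deposited beside them. FPKM and group means, 50 columns in all, were left out. Counts of libraries shared by several tables differed in 0 cells, so the tables were joined into 25844 genes (25 symbols have more than 1 identifier). Replicates all differed beyond sampling noise (chi-square divided by its degrees of freedom was at least 4.91). Library totals were 14165947 to 20823058 counts, and standard errors show how precise the fold changes are at that depth.

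Each comparison was fitted in edgeR 4.0.16 (R 4.3.3) with the quasi-likelihood test (robust), TMM scaling and the filterByExpr filter (at least 10 counts, total of at least 15), on the 8 libraries concerned, or on all 24 for 10 against 1 µM and for effects between times. Adjusted p-values run over all genes tested, and intervals are the log2 fold change ± 1.96 SE. How many of all genes had groups without overlap was counted only for 1 µM against control at 24 h. The scripts were tested on simulated data. CPM were TMM-scaled over all 24 libraries, and levels per kilobase use the deposited gene lengths. DESeq2 1.42.0, RLE scaling, no filter, the replicate block, a term for replicates 1 and 2 against 3 and 4, other sets of libraries and leaving out each library were the alternatives. Fits within replicates 1 and 2 and within 3 and 4 were added after seeing the data. The correlation of deviations of same-numbered libraries was over 0.1 in all 4 pairs of each comparison with control and of the doses (0.106 to 0.361), and in 3 of 4 pairs over time (0.0854 to 0.345).

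The members, the 7 pathway lists and the 11 marker lists were chosen with earlier results of these data known. Members called in any comparison were named with values per library, Axin2, Lef1, Tcf7, Lrp5, Lrp6, Wnt5a and Sfrp2 in any case, and of each list up to 4 called genes (3 for markers). Other members may be named where they bear on a result. CpG was marked in promoters after their sequences were seen.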

Additional observations from a re-analysis of the deposited data

Results flagged for a closer look

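The effect of 10 µM BPDP at 24 h minus that at 3 h passed the test for 8 genes in edgeR. On the log2 scale it was 1.55 for Wnt16, 0.92 for Sfrp2, 0.84 for Wif1, 0.82 for Fzd9, 0.67 for Frzb, 0.64 for Dkk2, -0.64 for Fzd6 and -0.72 for Fzd3.

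In 7 cases a single library stood apart from the 3 others of its group, among 126 groups of 4 looked at, where chance flags about 1 in 20. Libraries above their group were Axin2 in control replicate 1 at 24 h (117 CPM), Dkk2 in 1 µM replicate 1 at 3 h (220.3 CPM), Wnt16 in 10 µM replicate 2 at 24 h (12.1 CPM) and Wnt2 in 1 µM replicate 1 at 24 h (2.41 CPM). Libraries below their group were Dkk3 in 10 µM replicate 3 at 24 h (92.3 CPM), Lef1 in 1 µM replicate 1 at 3 h (53.4 CPM) and Wnt2 in 10 µM replicate 4 at 3 h (0.868 CPM).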

How the results depend on the processing

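Counts of the 45 genes called were compared between settings. With the replicate block, calls at 24 h went from 11 to 18 for 10 µM and from 4 to 7 between doses, and at 3 h from 0 to 5 for 10 µM; the block moved no other count by over 1.5 times. At 3 h with 10 µM, 6 genes were called when replicates 1 and 2 were set apart from 3 and 4 by a model term, 6 by DESeq2, 2 with no filter on low counts and 1 in a fit of all 24 libraries. Over all genes these settings called 332, 310, 102 and 45 higher and 114, 137, 40 and 7 lower. The fit of all 24 libraries also called 1 of the 45 genes with 1 µM at 24 h, beside 34 higher and 61 lower of all 16691 genes. Between doses, DESeq2 called 7 and a fit of the 2 groups alone called 2. Over all genes, DESeq2 called 335 higher and 506 lower of 16287, and the fit of the 2 groups 211 and 248 of 15407. Without 1 library, counts ran from 5 to 12 for 10 µM at 24 h and from 1 to 5 between doses. The calls over all genes in the fits with the most and the fewest of the 45 are given with those results. Within replicates 1 and 2 alone, edgeR called 0 genes for 10 µM at 24 h, over time, between doses and for the effect between times, with 14, 7, 8 and 12 at an unadjusted p under 0.05. In the same order, it called 2, 29, 14 and 7 of all genes higher and 4, 15, 44 and 15 lower. Within replicates 3 and 4 alone, counts were 6 for 10 µM at 24 h, 1 for 10 µM at 3 h, 5 over time, 2 between doses and 3 for the effect between times. Over all genes these were 463, 37, 745, 185 and 111 higher and 490, 11, 471, 174 and 178 lower. These fits have 2 libraries per group, and beyond fewer samples the cause was not tested. A minimum of 0.5 or 2 CPM kept 45 or 44 genes. At 24 h the lowest read count in a library was 2 for Sfrp4, 4 for Dkk4, 5 for Rspo4, 7 for Sfrp5 and 8 for Wnt2, which limits their precision.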
